A study of Homo sapiens with 6 samples.

Results

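RPS6KA2 is the gene in which the contacts described here lie, and they are regions that 4C-seq listed as touching the TBXT promoter. The lists of 3 lung cancer cell lines were pooled on identical start and end positions, and a region was kept when its midpoint lay within RPS6KA2 (ENSG00000071242.12, chr6:166409364-166906451, hg38, minus strand). This left 232 of 1201 distinct regions, or 19.3%. Each listed region is called a pCRE (putative cis-regulatory element) here, although the study's methods join fragments that lie close together into 1 pCRE. A joined run is called a stretch below.

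The groups were H460, a lung cancer line that expresses TBXT, and H358 and A549, a pair of lung cancer lines that do not. All 3 are established lines that were left untreated. H460 and H358 were grown in RPMI and A549 in DMEM. Each line had 2 replicate libraries, 6 in all, but the authors deposited a single list per line in which both replicates are pooled. No spread between replicates can therefore be given for any value here, no test was run, and all differences between lines are differences between lists. The lists give positions without read counts or scores, so the depth behind each pCRE is unknown. The totals of the H358 and A549 lists stand the other way round in the study's text, and every value here follows the names of the deposited lists, which nothing in the lists themselves can check.

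TBXT encodes brachyury, a T-box transcription factor of the early mesoderm and notochord that is switched on again in some carcinomas. RPS6KA2 encodes RSK3, a ribosomal S6 kinase that ERK phosphorylates and activates. 4C-seq crosslinks chromatin, cuts it with NlaIII, ligates fragments that lie close together in the nucleus, cuts again with DpnII and amplifies whatever was joined to one chosen site, the viewpoint. A gene can thus be listed because its chromatin comes near the viewpoint, whether or not the gene itself is active.

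Sequences that the results turn on are shown first, on hg38, read 5′ to 3′. The viewpoint is the NlaIII site in capitals at the end of the forward inverse primer (chr6:166169196-166169213, plus strand), and all distances are from position 166169210.

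Forward inverse primer: ggctttcccgcggaCATG

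The pCREs are built around NlaIII sites: 231 of the 232 held 1 such site and 1 held 2. The following sequences, on the plus strand with the NlaIII site in capitals, reach up to 30 bases to each side of the site without leaving the pCRE. They come from the pCRE nearest to the viewpoint in A549 (chr6:166414385-166414448, intron 19) and the farthest in H460 (chr6:166632157-166632197).

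A549 nearest: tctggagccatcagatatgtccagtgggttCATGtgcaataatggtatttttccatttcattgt
H460 farthest: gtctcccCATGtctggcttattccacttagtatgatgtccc

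A 300-base stretch is given from a pCRE that all 3 lines listed and that crosses exon 11 (chr6:166469698-166469997, minus strand, NlaIII site in capitals).

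Region at exon 11: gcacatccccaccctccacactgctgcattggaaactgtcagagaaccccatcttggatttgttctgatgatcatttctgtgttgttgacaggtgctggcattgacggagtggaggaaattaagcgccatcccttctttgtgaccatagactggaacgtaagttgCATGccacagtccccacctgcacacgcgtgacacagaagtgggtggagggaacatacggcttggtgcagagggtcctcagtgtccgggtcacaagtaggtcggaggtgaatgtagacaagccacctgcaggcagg

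The promoter of the canonical transcript is shown because H460 listed it and the other two lines did not, and that of a transcript starting in intron 1 because no line listed it. Both are the 220 bases upstream of the start on the minus strand (chr6:166627252-166627471 and chr6:166544691-166544910), with every GGGCGG, the core of the GC box, in capitals.

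Canonical promoter: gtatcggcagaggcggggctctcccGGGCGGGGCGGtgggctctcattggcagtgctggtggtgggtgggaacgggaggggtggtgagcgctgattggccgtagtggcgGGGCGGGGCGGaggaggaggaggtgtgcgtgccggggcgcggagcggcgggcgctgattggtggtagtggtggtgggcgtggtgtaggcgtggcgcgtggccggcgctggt
Intron 1 promoter: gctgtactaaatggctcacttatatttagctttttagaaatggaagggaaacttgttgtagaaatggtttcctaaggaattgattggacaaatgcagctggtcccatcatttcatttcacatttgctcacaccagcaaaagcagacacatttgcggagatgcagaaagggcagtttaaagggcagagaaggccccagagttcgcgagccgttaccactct

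Last, 211 bases are shown from the longest stretch of pCREs called in H460 alone (chr6:166557921-166558131, minus strand), with each ATACACA in capitals.

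ATACACA cluster: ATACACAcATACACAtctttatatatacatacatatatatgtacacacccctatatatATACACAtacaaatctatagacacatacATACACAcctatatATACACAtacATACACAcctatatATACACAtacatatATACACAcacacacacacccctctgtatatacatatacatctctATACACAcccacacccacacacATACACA

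RPS6KA2 spans 497 kb and begins 240 kb from the viewpoint with its 3′ end. The canonical transcript (ENST00000265678.9, chr6:166409364-166627251) covers the 218 kb nearest to TBXT, with 21 exons and 20 introns, and its start lies 458 kb away. The other 279 kb, out to 737 kb, belong to longer transcripts that begin at distal promoters.

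H358 listed the most pCREs over the whole gene, and H460 the most when the gene was ended at the canonical start (73 in H460, 60 in H358 and 59 in A549). Over the whole gene H460 had 86, which was 11.3% of its 760 pCREs (95% Wilson interval 9.26 to 13.8). H358 had 139 of 729, or 19.1% (16.4 to 22.1), and A549 had 59 of 759, or 7.77% (6.07 to 9.90). The intervals cover counting error only, and the authors' running mean over 30 fragments ties neighbouring pCREs to each other, which the intervals ignore. Covered sequence kept the same order: the H460 pCREs of the gene added up to 24015 bp, those of H358 to 35383 bp and those of A549 to 16374 bp. In PDE10A, a gene on the opposite side of the viewpoint with 261 pCREs, the order was different: A549 listed 220, H460 98 and H358 66.

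The gene holds 2516 NlaIII sites, so the counts correspond to 3.42% of them in H460, 5.52% in H358 and 2.34% in A549. Within 1 Mb of the viewpoint the same figures were 7.70%, 7.38% and 7.69% over 9874 sites. All 3 lists were thus thinner in RPS6KA2 than over the window as a whole, where the sites close to the viewpoint are included. For any line, 9.22% stood against 12.2%.

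**Figure D1:**
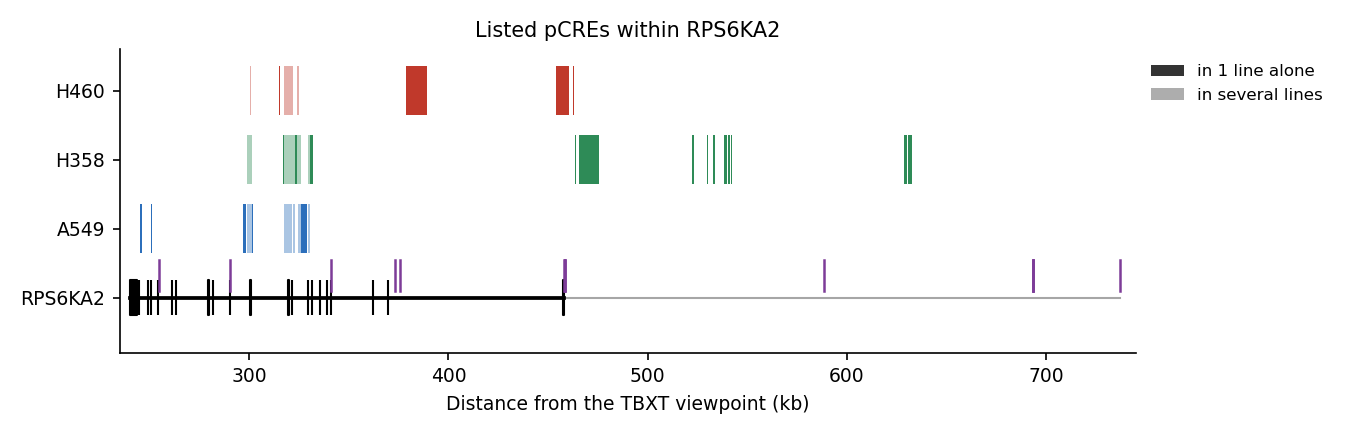
pCREs of H460 (red), H358 (green) and A549 (blue) are drawn to scale against distance from the TBXT viewpoint in kb, in full colour where 1 line alone listed them and pale where several did, above RPS6KA2 (black, canonical transcript and exons; grey, the longer transcripts; purple ticks, annotated RPS6KA2 starts). The pale pCREs all lie between 294 and 332 kb, and beyond 500 kb there are 40 pCREs, all of H358.

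Most of these contacts were in a single list. Of the 232 pCREs, 196 (84.5%, 95% Wilson interval 79.3 to 88.6) were in 1 line alone, where 46.1% of all 1201 distinct pCREs were. H358 alone held 103 (44.4%, beside 14.3% of all pCREs), H460 alone 68 (29.3%, beside 14.0%) and A549 alone 25 (10.8%, beside 17.8%). Only 16 (6.90%, 4.29 to 10.9) were in all 3 lists, beside 33.3% of all. Of the 969 pCREs outside the gene, 36.9% were in 1 line and 39.6% in all 3. Both wider sets include pCREs close to the viewpoint, so neither is matched to the gene in distance. PDE10A had 170 of 261 (65.1%) in 1 line and 32 (12.3%) in all 3.

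In the study's classes, with H460 as the line of reference, 68 pCREs were gained, 146 (62.9%) lost and 18 shared. The 2 pCREs of H460 and H358 (0.862%, beside 8.49% of all) and the 16 of all lines make up the shared class. No pCRE was in H460 and A549 alone, where 7.49% of all pCREs were. H358 and A549 alone had 18 in common (7.76%, beside 4.58%), and these count as lost.

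By pairs of lists, H358 and A549 had 34 pCREs in common, which were 24.5% of the H358 pCREs in the gene and 57.6% of the A549 ones. H460 and H358 had 18, or 20.9% and 12.9%, and H460 and A549 had 16, or 18.6% and 27.1%. The base pairs followed the same order, with 10027, 5602 and 5084 bp in common.

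The pCREs formed 7 clusters once gaps of more than 15 kb were taken as borders, a distance set once the lists were known. From the side of TBXT, the first cluster (chr6:166414313-166420170, 245 to 251 kb, introns 17 to 19) held 11 pCREs, all of A549. The next, in introns 6 to 11 (chr6:166462871-166501462, 294 to 332 kb), held 75 and was the only one in which lines listed the same pCREs. The third was a single H358 pCRE in intron 3 (chr6:166519730-166519904, 351 kb). The fourth, in intron 1 (chr6:166547780-166558507, 379 to 389 kb), held 41, all of H460. The fifth straddled the canonical start (chr6:166623089-166644721, 454 to 476 kb) with 25 of H460 and 39 of H358. The sixth (chr6:166691727-166712585, 523 to 543 kb) and the seventh (chr6:166798103-166802113, 629 to 633 kb) held 22 and 18, all of H358.

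Outside introns 6 to 11 there was no sharing: all 157 pCREs there were in 1 list, 66 in H460, 80 in H358 and 11 in A549. Between clusters ran gaps of 42.7, 18.3, 27.9, 64.6, 47.0 and 85.5 kb with no pCRE of any line, although they held 254, 103, 156, 341, 286 and 415 NlaIII sites. The last 104 kb up to the outermost start, with 507 sites, were also empty. A site without a pCRE may have fallen just short of a threshold in one replicate, which the lists do not show.

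Each line reached a different depth into the gene. A549 ranged from 245 kb to 330.3 kb (median 318 kb), H460 from 300.6 kb to 463 kb (median 384 kb) and H358 from 294 kb to 633 kb (median 467 kb). A549 thus entered nearest to the 3′ end and left first, while H358 went farthest. Of the H358 pCREs, 40 (28.8%) were beyond 500 kb, the limit above which the study speaks of far-cis, and neither other line had any. These were also the only far-cis pCREs of the gene, the other 192 (82.8%) being medium-cis.

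**Figure D2:**
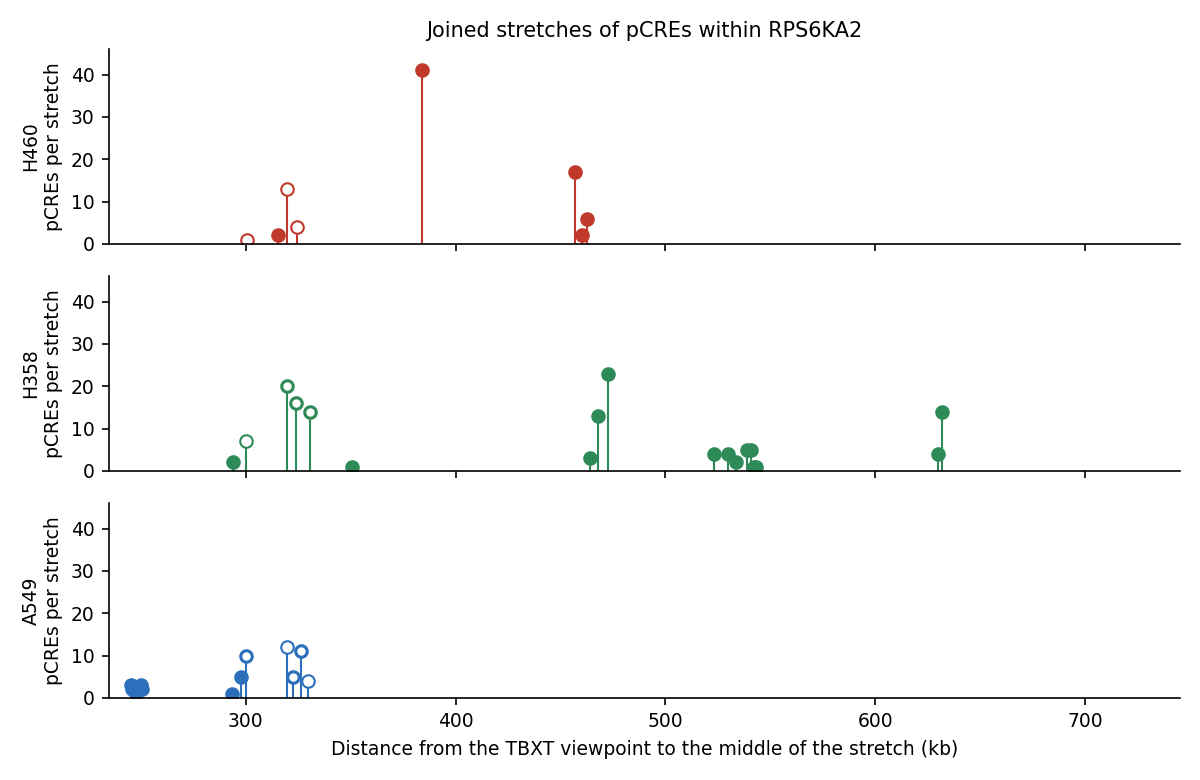
Each stem is a stretch of pCREs no more than 40 bp apart in one line, with its distance from the viewpoint in kb on the horizontal axis and its number of pCREs on the vertical axis; filled symbols are stretches in 1 line alone, open ones have no pCRE of that line alone, and rings have both. H460 has a stretch of 41, A549 none over 12, and H358 alone has stretches beyond 500 kb.

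Neighbouring pCREs were joined when they lay no more than 40 bp apart, the distance in the study's methods, since a smoothed signal passes a threshold in runs. There were 8 stretches in H460, 18 in H358 and 12 in A549, with a median of 5, 4.5 and 3.5 pCREs. H460 was the most concentrated: its longest stretch, the whole of the fourth cluster, held 41 of its 86 pCREs (47.7%), against 23 of 139 (16.5%) in H358 and 12 of 59 (20.3%) in A549.

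The shared cluster in introns 6 to 11 covered 38.6 kb. It held 20 H460, 59 H358 and 48 A549 pCREs, 75 in all, of which 36 (48%) were in several lists. H358 and A549 overlapped most here, with 34 in common, or 57.6% of the H358 and 70.8% of the A549 pCREs. Nearly all H460 pCREs of the cluster were also in H358 (18 of 20, 90%), and 16 (80%) were in A549. The remaining 2 formed a stretch of their own in intron 10 (chr6:166484155-166484780).

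**Figure D3:**
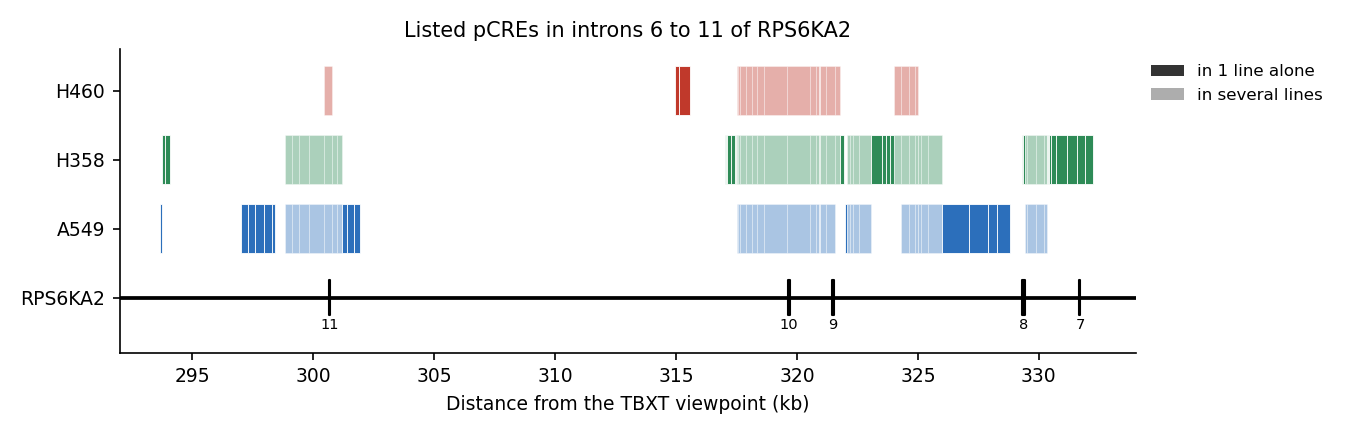
The cluster in introns 6 to 11 is enlarged, with distance from the viewpoint in kb on the horizontal axis, 1 box per pCRE in each line, pale where several lines listed it, and canonical exons numbered below. The block from 317.5 to 321.6 kb, over exons 9 and 10, is pale in all 3 lines, and H358 continues past it without a break at its near side.

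The longest stretch listed in all 3 lines lay at its centre (chr6:166486722-166490765, 4044 bp, 12 pCREs), from intron 10 over exons 10 and 9 into intron 8. A further 3 pCREs of all lines lay in intron 8 (chr6:166493518-166494203, 686 bp). The last of the 16 was the pCRE over exon 11 whose sequence is printed above (chr6:166469644-166469997, 354 bp), which was also the pCRE of H460 nearest to the viewpoint. All 4 NlaIII sites of intron 9 were listed by every line.

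The edges of the shared stretch differed between lines. H358 alone had 6 pCREs on its near side (chr6:166486253-166486721) and A549 alone had 4 farther out in intron 8 (chr6:166495220-166498010, 2791 bp). The 2 pCREs of H460 and H358 flanked the shared stretches directly (chr6:166490766-166490997 and chr6:166493232-166493517). A stretch of 4 pCREs of H358 and A549, the longest in base pairs among several with that number, lay in intron 11 (chr6:166468029-166469643, 1615 bp). The stretch of A549 alone with the most pCREs lay close to it (chr6:166466223-166467640, 1418 bp, 5 pCREs). After it and the stretch of 4 in intron 8 named above, the next of A549 alone held 3 pCREs each. They were one in intron 10 (chr6:166470401-166471145) and a pair in the cluster at the 3′ end (chr6:166414313-166414651 and chr6:166419222-166419563). In intron 7, all 11 NlaIII sites were listed in H358, 4 in A549 and none in H460.

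By intron, 11 of the 20 held a pCRE and 9 held none. H460 was in 5 introns, H358 in 7 and A549 in 8, and introns 8, 9, 10 and 11 had all lines. Intron 1 is by far the longest, with 88.1 kb and 451 NlaIII sites. It held 53 H460 pCREs, 11.8% of its sites, and no pCRE of the other lines. At the 3′ end, introns 17, 18 and 19 held 2, 3 and 6 pCREs, all of A549. Midpoints lay in introns for 138 pCREs, upstream of the canonical start for 92 and in an exon for 2. Both of the latter were in exon 8 and in H358 (chr6:166498494-166498544 and chr6:166498545-166498617).

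**Figure D4:**
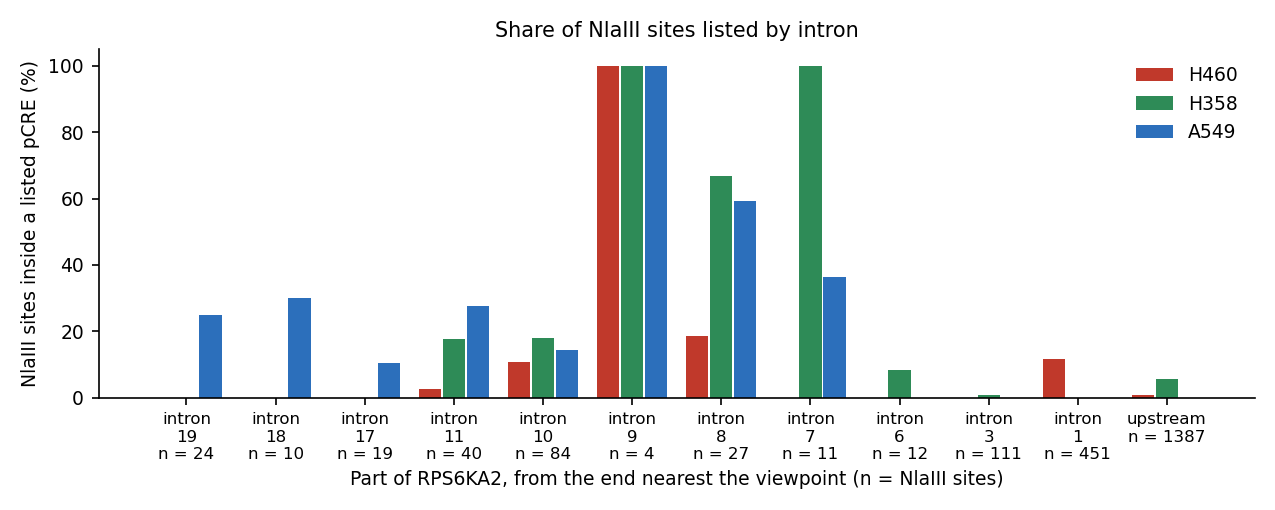
Bars give the percentage of NlaIII sites that lie inside a pCRE in H460 (red), H358 (green) and A549 (blue), for each intron of the canonical transcript with a listed site and for the sequence upstream of its start, ordered from the end nearest to the viewpoint, with the number of sites under each. Intron 9 is fully listed in all 3 lines, introns 17 to 19 in A549 alone and intron 1 in H460 alone.

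Of the 232 pCREs, 9 overlapped 6 of the 21 canonical exons (1, 7, 8, 9, 10 and 11), and 8 of them overlapped coding sequence. Any overlap counted here. By midpoint, only the 2 pCREs of H358 in exon 8 lay in coding sequence, and the study's text places every gained pCRE in non-coding sequence. Whether this is more or less than the exons' share of the gene was not tested. Those over exons 9, 10 and 11 were in all 3 lists. Exon 8 had the 2 H358 pCREs and 1 of H358 and A549 (chr6:166498618-166498725), exon 7 had 1 of H358 (chr6:166500778-166501113), and exon 1 had 2 of H460 (chr6:166626555-166627073 and chr6:166627074-166627476).

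Intron 1 carried the longest stretch of the gene. Its 41 H460 pCREs covered 10728 bp and 42 NlaIII sites without a break of more than 40 bp, and neither H358 nor A549 had a pCRE within it. They were 60.3% of all pCREs of H460 alone. In its motif search the study treats this stretch as a single gained pCRE. Its total of 168 gained pCREs, however, equals the number of unjoined regions listed in H460 alone. It selected the stretch, with another gained pCRE, for its H3K27ac, an active histone mark, and searched both for motifs. With this stretch left out, an alternative that was added after seeing the data, 81.2% of the pCREs in the gene were still in 1 line.

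The canonical start was another site at which H460 and H358 parted. H460 listed 17 pCREs across it (chr6:166623089-166629224, 6136 bp, 42.0 CpG per kb), 2 just beyond it (chr6:166629319-166629550) and 6 more at the far end (chr6:166631531-166632221). H358 began at position 166632998 with 3 pCREs. The gap of 776 bp between them held 7 NlaIII sites that no line listed. H358 then ran on with 13 pCREs (chr6:166634688-166639139, 4452 bp) and 23 pCREs (chr6:166639287-166644721, 5435 bp), its longest stretch in the gene. The nearest A549 pCRE lay 128 kb from this start.

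**Figure D5:**
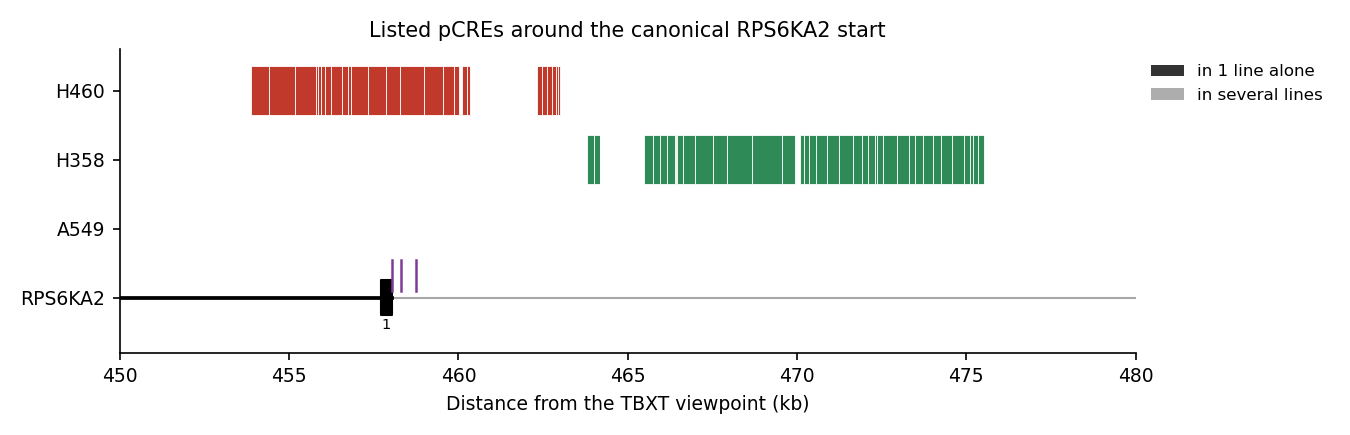
The cluster around the canonical start is enlarged, with distance from the viewpoint in kb on the horizontal axis, 1 box per pCRE in each line, exon 1 as a black box and RPS6KA2 starts as purple ticks. H460 covers the starts and ends at 463 kb, H358 begins at 464 kb and A549 has none.

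A pCRE counted as lying at a promoter when its midpoint was within the 1000 bp before an annotated start or the first 100 bp after it. Of the 13 RPS6KA2 starts, 3 had a pCRE at the promoter and 10 had none. The 3 were the canonical one at position 166627251 and its neighbours at 166627522 and 166627972, and their 4 pCREs were all of H460. The study's own annotation differs, with 2 gained pCREs up to 600 bp upstream of the RPS6KA2 start and a lost one within 1000 bp. What makes the difference was not tested. The nearest H358 pCRE lay 5.75 kb from the canonical start. The 2 coding starts in intron 1, at 166542450 and 166544690, lay 5.33 and 3.09 kb from the nearest H460 pCRE. At the distal starts near 693 kb no line came close, with H358 the nearest at 60.4 to 60.6 kb.

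The canonical promoter was set beside 2 that no line listed, 1 in intron 1 and 1 distal. The 220 bases printed above hold 4 GGGCGG, counted on both strands with overlaps allowed, 24 CpG and 73.6% GC. The same length upstream of the start in intron 1 holds no GGGCGG, 4 CpG and 43.6% GC. Over RefSeq promoter windows of 300 bases on GRCh38, 45.0% of 35116 held a GGGCGG and 34.6% an ATTGG, the core of the CCAAT box read on the other strand. The RefSeq window at the canonical start held 5 and 4, with 72.3% GC. The window at the distal start (chr6:166862476-166862775) held 1 of each, with 61.3% GC, where the median window had 58.7%. Such matches describe the sequence and say nothing of what binds there.

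Some of the other genes inside RPS6KA2 had pCREs. RPS6KA2-IT1, a non-coding RNA in intron 11, had 1 A549 pCRE at its promoter (chr6:166466223-166466518), and its body overlapped 2 pCREs of H358 and 1 of A549. The promoter pCRE lay 0.84 kb from the start, so a promoter of 600 bp would not include it. RAMACL, annotated as protein-coding within intron 1, had none: the nearest H460 pCRE lay 24.5 kb away, the nearest H358 one 46.3 kb and the nearest A549 one 83.5 kb. MIR1913 in intron 4 had none either, with H358 nearest at 7.89 kb. A processed pseudogene, ENSG00000235008, had an H358 pCRE at its start at position 166702839. In RefSeq, the promoter window of LOC107986671 (chr6:166633382-166633681), beyond the canonical start, also had an H358 pCRE. That pCRE was only 9 bp long (chr6:166633381-166633389), below the 40 bp under which the study's methods remove fragments.

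The far H358 pCREs formed small stretches. The sixth cluster had 7 of them with 1 to 5 pCREs each. The seventh had 1 of 4 and 1 of 14 pCREs (chr6:166799700-166802113, 2414 bp).

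GC content was 46.5% over the pCREs of H460 alone, 45.2% for H358 alone, 51.9% for A549 alone and 48.5% for those of all lines, with 46.5% over the whole gene. The intron 1 stretch of H460 had 43.3% and its stretch at the canonical start 51.6%, and single pCREs of H460 alone ran from 29.8% to 75.9%.

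The study's motif words ATACACA and TCATCA were counted on both strands, with overlaps allowed. The study searched for its motifs in gained pCREs that included the long intron 1 stretch of H460. Counts in that stretch, and in the pCREs of H460 alone that contain it, are therefore no independent evidence. The pCREs of H460 alone held 17 ATACACA (0.923 per kb) and 23 TCATCA (1.25 per kb). Those of H358 alone held 13 (0.523 per kb) and 14 (0.564 per kb), and the whole gene held 0.336 and 0.676 per kb. Most of the H460 matches came from 1 place. The intron 1 stretch held 15 of the 17 ATACACA, and 10 of these lay on the minus strand within the 211 bases printed above. Of the gene's windows of 211 bp, 5.05% held any ATACACA. The printed 211 bases begin and end on an ATACACA, which such windows do not. Windows as long as the stretch held a median of 3 and a maximum of 17 ATACACA. For TCATCA they held a median of 7 and a maximum of 18, and the stretch itself held 18. The windows of both lengths run over the whole gene and include the stretch's own sequence, so their maxima are not an outside reference. At least 1 ATACACA was in 95.7% of the 46 windows as long as the stretch, and at least 1 TCACACCT in 56.5%. TCACACCT, a word that T-box factors bind, had 4 matches in all pCREs of the gene and 36 in the gene.

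The reads were aligned by their 30-base ends, so the copies of these ends in hg38 were counted. At least 1 unique end was found at 225 of the 233 NlaIII sites inside pCREs (96.6%) and at 2110 of the 2283 others (92.4%). The 8 pCREs without one were 2 of H460, 5 of H358 and 1 of H358 and A549. Among them was the farthest H358 pCRE (chr6:166801895-166802113), with 540 and 9309 copies of its ends. The farthest H358 pCRE with a unique end was its neighbour (chr6:166801625-166801894, 633 kb). The part of repeats in the lists was not tested. Without the 8, the counts were 84 in H460, 133 in H358 and 58 in A549.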

How the data were processed

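4C-seq from the TBXT promoter was made in 6 samples, 2 replicates for each of H460, H358 and A549. The authors trimmed reads to 30 bp, aligned them with Bowtie 1.2.2 to NlaIII and DpnII fragments of hg38, took a running mean over 30 fragments and called fragments with peakC in both replicates. The deposited values are of another kind than counts: start and end positions in bp, 1 list per line, with no depth, so its precision is unknown. A running mean makes neighbouring calls depend on each other, and a missing call may lie just under a threshold.

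Header lines were dropped (1 in A549, 1 in H358). All 261 pCRE boundaries in the gene lay within 3 bp of an NlaIII fragment midpoint of hg38. Annotation was GENCODE 44, with promoter windows from RefSeq. Shares carry 95% Wilson intervals (scipy 1.17.1, Python 3.11.15), and no test between lines was made. Sequences of pCREs in H358 alone are not reported here. The script that joins pCREs was tested on simulated data. pCREs named were the 3 longest stretches of each line alone and of all lines, the longest of each pair, the nearest and farthest of each line, those at promoters and over exons, fixed by rule. Members and lists were chosen with earlier results of these data known. Alternatives changed the gene border, joining distance, promoter, transcript, viewpoint and filters.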

Additional observations from a re-analysis of the deposited data

How the results depend on the processing

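No paired analysis was possible because each list pools both replicates and carries no replicate number, and for the same reason no replicate could be left out. Over 15 results and 44 alternative values, 39 stayed within their limits and 5 did not. Ending the gene at the canonical start left 60 of the 139 H358 pCREs, 73 of the 86 in H460 and all 59 in A549, so that H460 and not H358 had the most. Joining pCREs up to 1000 bp apart left 7 of the 12 A549 stretches. It also left 12 of the 18 H358 stretches, and a promoter of 600 bp left 4 of 6 promoter pCREs. The limits for counts were wide enough that both of these still passed as within them. Counting joined stretches in place of pCREs lowered the share in 1 line from 84.5% to 68.4%. The H460 share of intron 1 was 16.5% by base pairs in place of 11.8% by NlaIII sites, and 0% in intron 1 of the longest coding transcript, whose start is at position 166862511 and whose intron 1 is another interval. The unknown depth limits every count.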
